A study of Homo sapiens with 60 samples.

Results

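MYBL2, FOXM1, E2F1, MYC, CCND1, CCND3, CCNE1, CCNE2, CDK6 and CDKN1B are the 10 genes described here. They encode transcription factors of the cell cycle, cyclins that act in G1, a kinase bound by D-type cyclins and an inhibitor of cyclin-dependent kinases. They were chosen by name, as the rows whose Ensembl identifier maps to these symbols. All 10 were found among the 60675 gene identifiers measured, and all 10 were among the 17792 genes that passed the filter on low counts. RNA-seq was carried out in SW1783, an established human astrocytoma cell line, after 24 h of treatment, in 60 libraries that form 20 groups of 3. The treated groups were 10 µM wortmannin, an inhibitor of phosphatidylinositol 3-kinases (PI3K), and water extracts of 6 medicinal plants at a low, a medium and a high dose. Liriopis seu Ophiopogonis Tuber, Schisandrae Fructus, Longan Arillus, Zizyphi Semen and Aucklandiae Radix were each given at 20, 100 and 500 µg/mL, and Polygalae Radix at 10, 50 and 250 µg/mL. The reference was a DMSO vehicle, at 0.1% per the sample labels and at 2% per the series text, and the labels give no DMSO content for the treated groups. Whether the 3 libraries of a group were separate cultures is not stated in the labels. Every p-value therefore refers to the spread among the libraries sequenced, which may be technical.

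D-type cyclins activate CDK6 and its close relative CDK4, and E-type cyclins activate CDK2. These kinases phosphorylate the retinoblastoma protein, which releases E2F factors to transcribe genes of DNA replication. MYBL2 and FOXM1 act later, with the MuvB complex, on promoters of genes used in G2 and mitosis. MYC drives transcription of genes of growth and ribosome production, and p27, the product of CDKN1B, restrains cyclin-CDK complexes. PI3K signalling is known to sustain cyclin D1 and to hold FOXO factors, which can induce CDKN1B, outside the nucleus.

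Total expected counts, in units of 1000000, ran from 9.34 to 35.35 per library with a median of 25.71, and each of the 10 genes had at least 173 counts in every library. Liriopis high replicate 1 stood apart: its mean correlation with the other libraries of its group was 0.945, and every library outside that group reached at least 0.984. That library also widened the spread of the common fit, so the counts of calls for the 10 genes and for the gene lists are given with and without it, and with the share of all genes called. The fit without it tested 18078 genes. The library names put vehicle, wortmannin and the herbs into different sets, with Liriopis and Schisandrae in one set, Longan and Zizyphi in another, and Polygalae and Aucklandiae in another. A set difference and a treatment effect cannot be told apart in a comparison with vehicle, whereas the doses of a herb share a set. Single glial markers are given as CPM of library totals without TMM scaling. Of them, VIM (4690 CPM), CD44 (2760 CPM) and CHI3L1 (732 CPM) were high in vehicle libraries. In contrast, GFAP (0.145 CPM), S100B (0.0476 CPM) and ALDH1L1 (0.0468 CPM) were near 0 and AQP4 was at 0.

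Unless stated otherwise, levels are given as CPM, the counts scaled to TMM-normalised library totals of 1000000. Between genes they were compared as CPM per kb of exon, over the union of annotated exons. In vehicle, FOXM1 had 42.6 ± 0.22 CPM per kb and CCND1 42.2 ± 3.62 CPM per kb (SD, n = 3), the highest levels of the 10 genes and within 1 SD of each other. MYC followed at 21.3 ± 0.557 CPM per kb. E2F1, CCND3 and MYBL2 came next, with 16.2 ± 0.629, 15.4 ± 0.78 and 15.3 ± 0.441 CPM per kb, and their ranges of 1 SD overlapped. CDK6, CCNE1 and CDKN1B followed at 7.94 ± 1.03, 7.63 ± 0.293 and 7.59 ± 0.404 CPM per kb, again without a gap beyond their SD. CCNE2 was lowest at 4.90 ± 0.123 CPM per kb.

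**Figure D1:**
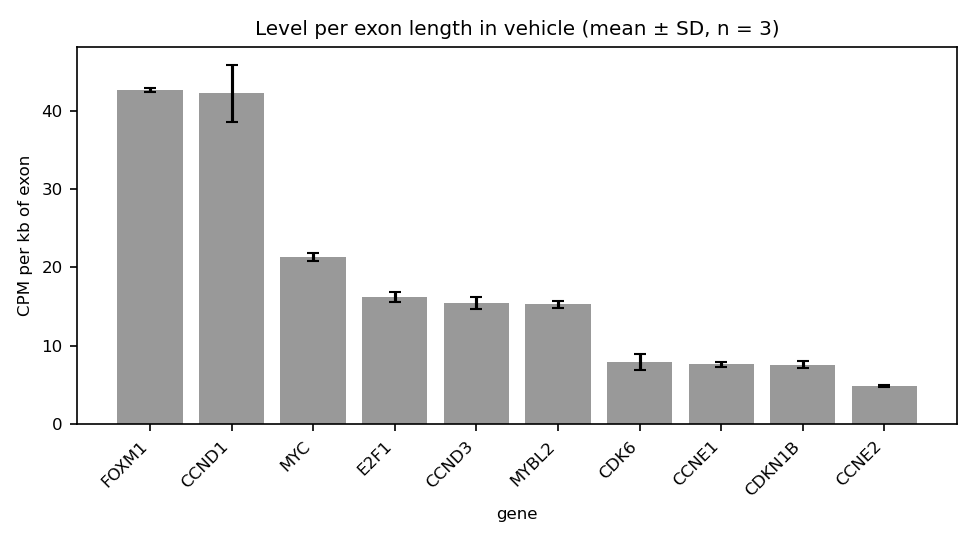
CPM per kb of exon of the 10 genes in the 3 vehicle libraries, ordered by level; bars show the mean and error bars the SD (n = 3). FOXM1 stands at 42.6 and CCND1 at 42.2 CPM per kb, MYC at 21.3 CPM per kb, and CCNE2 is lowest at 4.9 CPM per kb.

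At the high dose of Schisandrae, against both vehicle and the low dose, E2F1, MYBL2, FOXM1 and both E-type cyclins fell while MYC, CCND1 and CDKN1B rose. Under wortmannin MYBL2 and FOXM1 fell and CDKN1B rose. The further calls given here are those of the fit of all 60 libraries. Under Polygalae at the high dose MYBL2 and CDK6 fell and MYC rose against both references. In that fit CDKN1B rose there against vehicle only, and E2F1 and CCNE2 rose against the low dose only. Without Liriopis high replicate 1, 6 genes were called higher and 3 lower at Polygalae high against vehicle. Under Aucklandiae at the high dose CCND1 and MYC rose against both references. In the same fit CDKN1B fell there against vehicle only, and CCNE1 rose against the low dose only. Without Liriopis high replicate 1, CDKN1B and FOXM1 were also called lower at Aucklandiae high against low. In these bulk samples, fewer cells in a phase that uses a gene and less RNA of it per cell cannot be told apart. A gene is called here at a Benjamini-Hochberg adjusted p under 0.05 over all 17792 genes in edgeR's quasi-likelihood test. The p-values of the comparisons with vehicle are not independent of each other, since they share the 3 vehicle libraries.

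Of the 10 genes, 8 were called at Schisandrae high against low, where 49.7% of all genes were, and 10 without Liriopis high replicate 1, where 57.6% were. Against vehicle it was 8 beside 50.9% of all genes, and 9 beside 58.6% without that library. Against vehicle, Schisandrae high had log2 fold changes of -0.71 for MYBL2, -0.25 for FOXM1, -0.50 for E2F1, -0.58 for CCNE1 and -0.72 for CCNE2, which fell. MYC at 0.78, CCND1 at 0.54 and CDKN1B at 0.56 rose. For wortmannin against vehicle 3 of 10 were called beside 12% of all genes, and 6 beside 22.7% without that library. Polygalae gave 2 of 10 at the low, 4 at the medium and 4 at the high dose against vehicle, beside 6.46%, 30.1% and 46.1% of all genes. Without that library these were 2, 5 and 9 of 10, beside 13.9%, 40.4% and 54.0%. Polygalae high against low gave 5 of 10 beside 36.2% (8 beside 45.7% without it), and medium against low 1 of 10 beside 10.9% (2 beside 20.2% without it). Aucklandiae gave none at the low, 1 at the medium and 3 at the high dose against vehicle, beside 0.00562%, 0.455% and 13.2% of all genes. Without that library these were 0, 2 and 4, beside 0.0885%, 1.5% and 22.8%. Aucklandiae high against low gave 3 of 10 beside 10.6%, and 5 beside 19.3% without it.

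**Figure D2:**
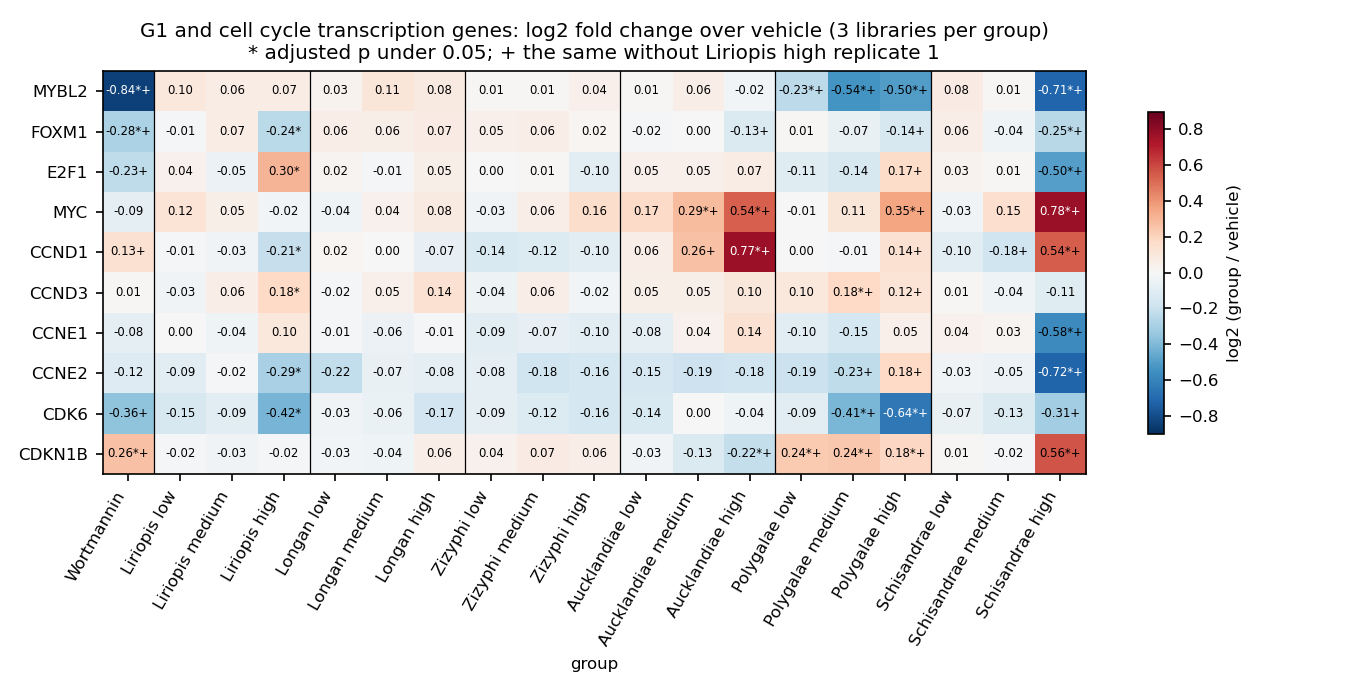
Log2 fold change over vehicle of each gene (rows) in each of the 19 treated groups (columns; 3 libraries each); red is higher and blue lower than vehicle, an asterisk marks an adjusted p under 0.05 and a plus sign the same without Liriopis high replicate 1. Asterisks with plus signs stand under wortmannin, Aucklandiae medium and high, the 3 doses of Polygalae and Schisandrae high, with MYBL2 lowest under wortmannin at -0.84 and MYC highest under Schisandrae high at 0.78.

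MYBL2 encodes B-Myb, the partner of MuvB in S phase and an E2F target itself. The gene lies on chromosome 20 (43667019 to 43716496, plus strand, GRCh38), and E2F1 on the same chromosome (33675683 to 33686404, minus strand). Promoter windows from 250 bases before to 50 bases after the start, were taken from RefSeq (GRCh38.p14), which gave 9 windows for 6 of the 10 genes. They were searched on both strands for E2F (TTTCCCGC, TTTCGCGC, TTTGCCGC or TTTGGCGC), CHR (TTTGAA or TTCGAA) and E-box (CACGTG) letters, and also for TTGGCGGG, which was added after the MYBL2 window had been seen. A stretch of the MYBL2 and of the E2F1 window is shown because both genes are known E2F targets, with the matches in capitals.
MYBL2: cgccgacgcgcTTGGCGGGagatagaaaag
E2F1: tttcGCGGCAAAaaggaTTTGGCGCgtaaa
The MYBL2 stretch (chr20:43667062-43667091, plus strand) holds TTGGCGGG from 41 to 34 bases before the RefSeq start. The E2F1 stretch (chr20:33686393-33686422, minus strand, read 5′ to 3′ along the gene) holds 2 E2F matches, one on each strand, from 33 to 13 bases before the start, and no match overlapped another. Both stretches overlap an exon annotated in GENCODE release 29. Of 35116 RefSeq windows of the same length, 3.31% hold an E2F match, 16.4% a CHR, 7.26% an E-box and 1.2% TTGGCGGG. The MYBL2 window and 1 of the 2 CDK6 windows also hold an E-box, no CHR was found in the 9 windows, and none of these letters was in the windows of CCNE1, CCND3 or CDKN1B. A match describes letters and was not tested for binding.

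MYBL2 had 20.9, 26.2 and 24.4 CPM in the 3 wortmannin libraries, against 42.9, 41.3 and 43.7 CPM in vehicle. All 3 wortmannin libraries were below all 3 vehicle libraries, and the wortmannin mean was the lowest of the 20 groups (log2 fold change -0.84, SE 0.07, adjusted p = 3e-12). In Schisandrae, MYBL2 had 42.4, 44.6 and 47.8 CPM at the low, 41.9, 41.7 and 45.3 at the medium and 26.4, 26.1 and 25.3 CPM at the high dose. The low and medium libraries overlapped, and the high dose stood below both (log2 fold change -0.79, SE 0.07, adjusted p = 4.4e-13). In Polygalae, MYBL2 had 35.2, 35.5 and 38.1 CPM at the low, 29.6, 28.1 and 30.2 at the medium and 30.9, 29.7 and 29.7 CPM at the high dose. All 9 Polygalae libraries lay below the 3 vehicle libraries. The medium dose was below the low dose (log2 fold change -0.31, SE 0.07, adjusted p = 0.0018), and so was the high dose (log2 fold change -0.27, SE 0.07, adjusted p = 0.002). Medium and high doses of Polygalae overlapped each other. Against vehicle the low dose gave log2 fold change -0.23, SE 0.07, adjusted p = 0.031. That call ended at adjusted p = 0.087 to 0.15 with no filter on low counts, without Vehicle replicate 1 or 3, or without Polygalae low replicate 1 or 2. Without Liriopis high replicate 1 the low dose gave adjusted p = 0.004. Longan and Zizyphi at all doses, Liriopis and Schisandrae at low and medium dose and Aucklandiae at the low dose form 11 groups. They hold 33 libraries and were chosen because none or few of all genes were called in them. A narrow range in them is therefore partly set by the choice. MYBL2 ranged there from 39.8 to 48.9 CPM, with a median of 44.3 CPM.

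FOXM1, the forkhead factor that drives genes of G2 and mitosis, lies on chromosome 12 (2857681 to 2877155, minus strand). It had 168, 174 and 173 CPM in wortmannin libraries and 208, 209 and 210.0 CPM in vehicle. The groups did not overlap (log2 fold change -0.28, SE 0.09, adjusted p = 0.022), and without Liriopis high replicate 1 the fold change was -0.28 with adjusted p = 1.4e-09. With that library kept, leaving out any 1 of the 6 wortmannin and vehicle libraries ended the call. So did using no filter on low counts, and the adjusted p of these runs was 0.051 to 0.088. In Schisandrae, FOXM1 had 221, 217 and 215 CPM at the low, 205, 202 and 204 at the medium and 179, 174 and 175 CPM at the high dose. The 3 doses did not overlap, and the step from low to high passed the test (log2 fold change -0.31, SE 0.09, adjusted p = 0.0026). The high doses of Polygalae (189.6, 188 and 191 CPM) and Aucklandiae (190.0, 198 and 184 CPM) were also below all vehicle libraries, but with log2 fold changes of -0.14 (adjusted p = 0.19) and -0.13 (adjusted p = 0.39) they did not pass. Without Liriopis high replicate 1 they gave adjusted p = 0.00023 for Polygalae and adjusted p = 0.0015 for Aucklandiae. The exons of FOXM1 share 781 bases with ITFG2 on the other strand, and the strand setting of the counting is not given. ITFG2 had a mean of 502 counts against 5230 counts of FOXM1. Its own log2 fold change was -0.33 (SE 0.11, adjusted p = 0.008) at Schisandrae high against low, where FOXM1 also fell. For wortmannin against vehicle it was -0.08 (SE 0.10, adjusted p = 0.74). The part of ITFG2 in the FOXM1 results was not tested.

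E2F1 is the founding activator of the E2F family. E2F1 had 39.9, 39.6 and 45.05 CPM at the low, 37.6, 41.5 and 43.3 at the medium and 27.8, 29.4 and 28.99 CPM at the high dose of Schisandrae. The high dose libraries were the lowest of all 60, and the drop against low passed the test (log2 fold change -0.53, SE 0.10, adjusted p = 1.8e-05). In Polygalae the order was the other way, with 37.8, 38.5 and 36.7 CPM at the low, 35.3, 36.0 and 39.0 at the medium and 46.4, 45.2 and 45.1 CPM at the high dose. The high dose was above both others and rose against low (log2 fold change 0.28, SE 0.10, adjusted p = 0.023). That call ended, at adjusted p = 0.052 to 0.079, without Polygalae high replicate 1 or Polygalae low replicate 1 or 3. Against vehicle the high dose was not called in the fit of all 60 libraries, although its 3 libraries lay above all 3 vehicle libraries. The vehicle mean of 40.6 CPM lay between the means of the low (37.6 CPM) and the high dose (45.6 CPM). Under wortmannin E2F1 had 33.6, 34.0 and 36.1 CPM, below all 3 vehicle libraries at 42.4, 39.4 and 40.1 CPM. The difference missed the threshold (log2 fold change -0.23, SE 0.10, adjusted p = 0.13) and gave adjusted p = 0.0025 without Liriopis high replicate 1.

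MYC, a factor that binds E-boxes with MAX, lies on chromosome 8 (127735434 to 127741434, plus strand). MYC had 62.5, 64.9 and 59.6 CPM at the low, 71.1, 72.8 and 68.5 at the medium and 107, 108 and 112 CPM at the high dose of Schisandrae. The 3 doses did not overlap, and high exceeded low by 1.75-fold (log2 fold change 0.81, SE 0.05, adjusted p = 6.1e-18), the largest rise of the 10 genes in any comparison of doses. Medium against low had a log2 fold change of 0.18 (adjusted p = 0.13, and adjusted p = 0.033 without Liriopis high replicate 1). In Aucklandiae, MYC had 69.1, 73.3 and 73.8 CPM at the low, 77.2, 74.8 and 81.5 at the medium and 93.1, 89.8 and 95.5 CPM at the high dose. All 9 lay above the 3 vehicle libraries (63.7, 65.6 and 62.2 CPM) and the doses did not overlap. Medium (log2 fold change 0.29, SE 0.05, adjusted p = 0.0011) and high (log2 fold change 0.54, SE 0.05, adjusted p = 2.4e-11) passed against vehicle, and high passed against low (log2 fold change 0.36, SE 0.05, adjusted p = 5.9e-07). With no filter on low counts the medium dose gave adjusted p = 0.086 against vehicle. In Polygalae, the high dose at 85.4, 78.6 and 80.9 CPM was above the low dose at 64.7, 62.2 and 63.9 CPM (log2 fold change 0.36, SE 0.05, adjusted p = 1.5e-07). Wortmannin libraries had 58.5, 61.2 and 60.6 CPM, below the vehicle range, with a log2 fold change of -0.09 that did not pass (adjusted p = 0.32, 95% interval -0.19 to 0.02). For Zizyphi high against low the log2 fold change was 0.19 (adjusted p = 0.075, and adjusted p = 0.017 without Liriopis high replicate 1), with 72.2, 70.7 and 70.6 CPM at the high and 65.6, 62.4 and 59.4 CPM at the low dose.

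**Figure D3:**
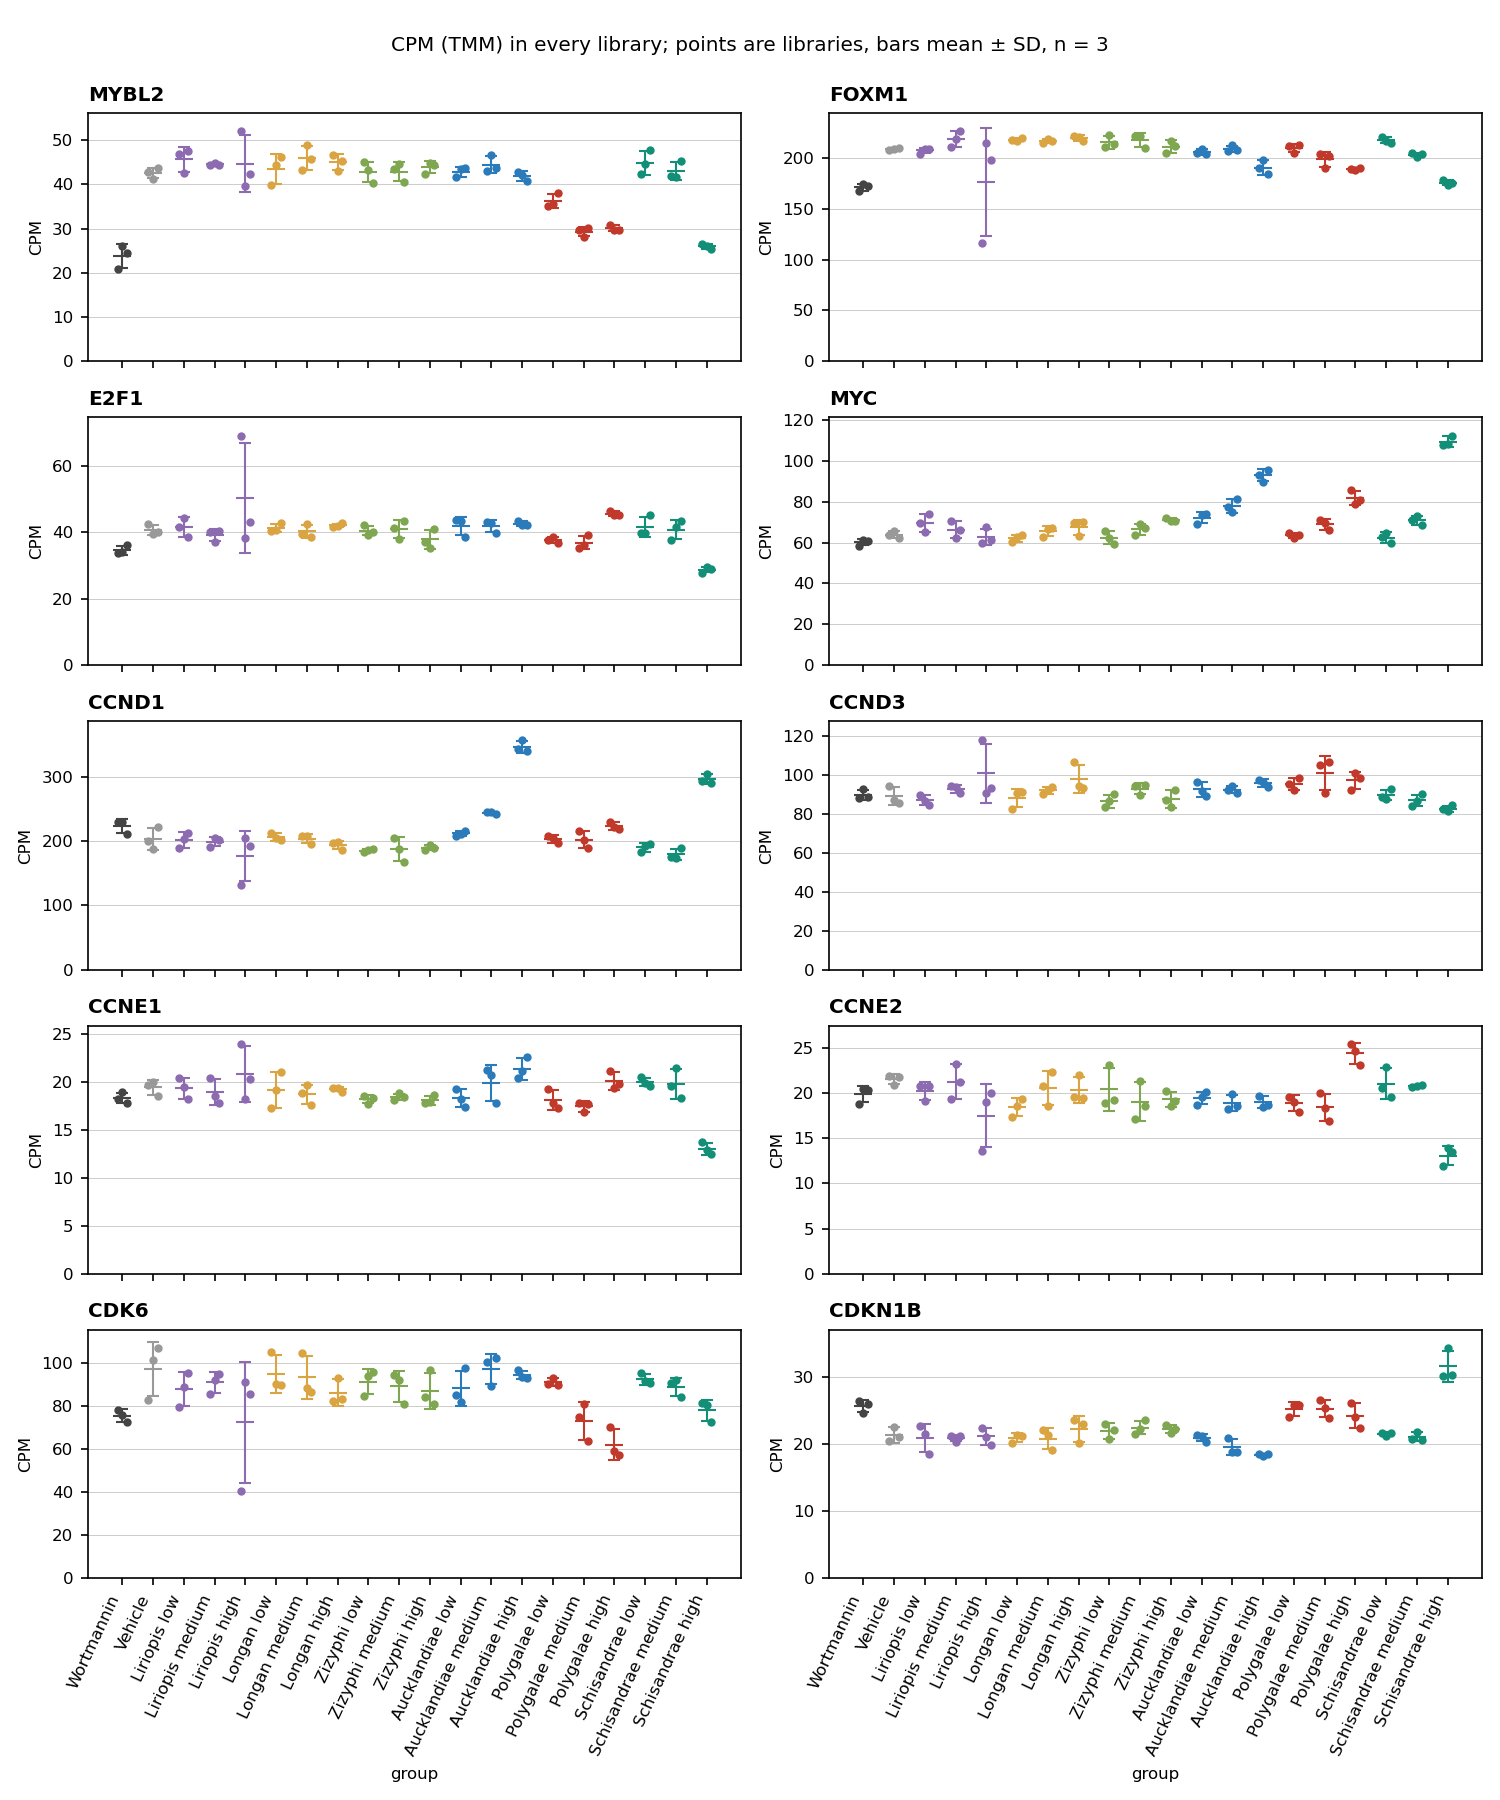
CPM of each of the 10 genes in all 60 libraries; points are libraries, and bars the mean ± SD of each group (n = 3), with wortmannin and vehicle at the left and each herb from low to high dose. Schisandrae high holds the 3 lowest libraries for E2F1 and CCNE1 and the 3 highest for MYC and CDKN1B, and Liriopis high replicate 1 is the lowest library for FOXM1, CCND1 and CDK6 and the highest for MYBL2, E2F1, CCND3 and CCNE1.

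CCND1 encodes cyclin D1 and lies on chromosome 11 (69641087 to 69654474, plus strand). At Aucklandiae, CCND1 had 209, 212 and 216 CPM at the low, 246, 245 and 242 at the medium and 344, 358 and 341 CPM at the high dose. The doses did not overlap, and high exceeded low 1.64-fold (log2 fold change 0.71, SE 0.08, adjusted p = 2.9e-09); the high libraries were the highest of all 60. Schisandrae high libraries, at 295, 306 and 291 CPM, were above the low ones at 183, 192 and 196 CPM (log2 fold change 0.64, SE 0.08, adjusted p = 3.3e-09), without overlap; the medium dose had 176, 174 and 189.6 CPM. Polygalae high had 230.0, 223 and 219 CPM and low had 208, 205 and 197 CPM, a log2 difference of 0.14 that did not pass (adjusted p = 0.18, and adjusted p = 0.023 without Liriopis high replicate 1). Wortmannin had 229.9, 230.1 and 211 CPM beside 201, 188 and 223 CPM in vehicle, which overlap, with a log2 fold change of 0.13 (adjusted p = 0.32, 95% interval -0.03 to 0.29). Without Liriopis high replicate 1 it passed as higher, at adjusted p = 0.049. LTO1 shares 497 exon bases with CCND1 on the opposite strand and had a mean of 401 counts against 5470 counts of CCND1. At high against low, its own log2 fold change was -0.04 (SE 0.09, adjusted p = 0.87) in Aucklandiae. It was 0.12 (SE 0.09, adjusted p = 0.27) in Schisandrae and 0.21 (SE 0.09, adjusted p = 0.061) in Polygalae. The part of LTO1 in the CCND1 results was not tested. The summed fibroblast markers had 3110 to 3190 CPM at Aucklandiae high, against 4860 to 4980 CPM at Aucklandiae low, and their part in the CCND1 result was not tested.

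CCND3, which encodes cyclin D3 (chromosome 6, 41934933 to 42050357, minus strand), had the narrowest range of the 10 genes, with a ratio of 1.22 between the highest and lowest group mean. Polygalae medium had 105, 90.8 and 107 CPM against 94.3, 87.4 and 85.9 CPM in vehicle, which overlap in their ranges, although the difference passed (log2 fold change 0.18, SE 0.06, adjusted p = 0.028). It ended at adjusted p = 0.077 to 0.2 with no filter, with only the compared groups in the fit, or without any 1 of Vehicle replicates 2 and 3 and Polygalae medium replicates 1 and 3. Schisandrae high had 82.5, 81.3 and 84.4 CPM and low 88.6, 87.6 and 92.7 CPM, and did not pass (log2 fold change -0.12, SE 0.06, adjusted p = 0.13). Wortmannin had 88.0, 92.6 and 88.6 CPM, a log2 fold change over vehicle of 0.01 with a 95% interval of -0.12 to 0.14.

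CDK6, the kinase that pairs with D-type cyclins, lies on chromosome 7 (92604921 to 92836594, minus strand). It had 90.6, 93.3 and 90.0 CPM at the low, 75.0, 81.1 and 63.6 at the medium and 70.4, 59.0 and 57.2 CPM at the high dose of Polygalae. The high dose lay below the low dose without overlap (log2 fold change -0.55, SE 0.14, adjusted p = 0.0013) and below vehicle at 83.0, 102 and 107 CPM (log2 fold change -0.64, SE 0.14, adjusted p = 0.00014). The vehicle libraries spread more widely in CDK6, relative to their mean, than in any other of the 10 genes. Polygalae medium against vehicle passed (log2 fold change -0.41, SE 0.14, adjusted p = 0.02), but not without Vehicle replicate 2 or 3 or Polygalae medium replicate 3, at adjusted p = 0.073 to 0.13. Under wortmannin, CDK6 had 78.4, 76.0 and 72.7 CPM, below all 3 vehicle libraries (log2 fold change -0.36, SE 0.14, adjusted p = 0.081), and adjusted p = 0.0016 without Liriopis high replicate 1. Schisandrae high at 81.4, 80.8 and 72.5 CPM was below Schisandrae low at 95.6, 91.8 and 90.7 CPM, with a log2 fold change of -0.24 (adjusted p = 0.14, and adjusted p = 0.015 without that library). The summed CPM of the 5 fibroblast markers, among them COL1A1 and COL1A2, also ran lower with Polygalae dose. Their sum was 1100 to 1190 CPM in the high dose libraries, against 3800 to 4100 in the low dose libraries, and the sum over the 9 glial markers was 4070 to 4400 against 7150 to 7560 CPM. The part of these changes in the CDK6 result was not tested.

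Cyclin E1 and cyclin E2 are encoded by CCNE1 on chromosome 19 (29811898 to 29824308, plus strand) and CCNE2 on chromosome 8 (94879770 to 94896678, minus strand). CCNE1 had 20.5, 19.9 and 19.6 CPM at the low, 19.7, 21.5 and 18.3 at the medium and 13.7, 13.0 and 12.5 CPM at the high dose of Schisandrae. All 3 high dose libraries were below every other library of the study, and high against low passed (log2 fold change -0.62, SE 0.08, adjusted p = 2.4e-09). CCNE2 had 20.6, 22.9 and 19.5 CPM at the low, 20.7, 20.7 and 20.9 at the medium and 11.9, 13.9 and 13.5 CPM at the high dose of Schisandrae, with all 3 high dose libraries below both other doses (log2 fold change -0.69, SE 0.10, adjusted p = 4.8e-08). In Polygalae, CCNE2 had 19.6, 19.1 and 17.9 CPM at the low, 20.0, 18.3 and 16.9 at the medium and 25.4, 24.6 and 23.1 CPM at the high dose. The high dose lay above both others and rose against low (log2 fold change 0.37, SE 0.09, adjusted p = 0.00093). Against vehicle CCNE2 at the high dose was not called in the fit of all 60 libraries, although all 3 libraries lay above those of vehicle. Its vehicle mean of 21.5 CPM lay between the means of the low (18.9 CPM) and the high dose (24.4 CPM). CCNE1 in Polygalae high (21.2, 19.4 and 19.8 CPM) did not pass against low (19.3, 17.8 and 17.3 CPM; log2 fold change 0.15, SE 0.07, adjusted p = 0.11), although the libraries do not overlap, and gave adjusted p = 0.046 without Liriopis high replicate 1. In Aucklandiae, CCNE1 had 20.4, 21.1 and 22.6 CPM at the high and 19.4, 18.3 and 17.4 CPM at the low dose (log2 fold change 0.22, SE 0.07, adjusted p = 0.045), a call that ended with no filter on low counts, without Aucklandiae high replicate 2 or 3, or without Aucklandiae low replicate 2 or 3, at adjusted p = 0.085 to 0.22. Wortmannin had 18.3, 18.96 and 17.9 CPM of CCNE1 and 18.8, 20.4 and 20.4 CPM of CCNE2, with log2 fold changes of -0.08 and -0.12 over vehicle that did not pass (adjusted p = 0.55 and adjusted p = 0.49). INTS8 shares 1629 of the 4397 exon bases of CCNE2, on the opposite strand. It had a mean of 1350 counts against 502 counts of CCNE2. Reads of the shared bases cannot be told apart without the strand setting. INTS8 itself had log2 fold changes of -0.22 (SE 0.06, adjusted p = 0.0042) at Schisandrae high against low and -0.31 (SE 0.06, adjusted p = 0.00016) at Polygalae high against low, the second opposite in sign to CCNE2.

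CDKN1B encodes p27 and lies on chromosome 12 (12715058 to 12722371, plus strand). Wortmannin libraries had 26.3, 24.6 and 25.9 CPM against 20.4, 22.6 and 21.1 CPM in vehicle, with no overlap (log2 fold change 0.26, SE 0.06, adjusted p = 0.0036). Schisandrae high had 30.2, 34.3 and 30.4 CPM and low 21.7, 21.1 and 21.6 CPM, and high was the highest of the 20 groups (log2 fold change 0.56, SE 0.07, adjusted p = 7.9e-10). The Polygalae doses had 24.0, 25.8 and 25.8 CPM at the low, 26.5, 25.4 and 23.9 at the medium and 26.2, 24.0 and 22.4 CPM at the high dose. Each passed against vehicle, at 0.24 (SE 0.07, adjusted p = 0.016), 0.24 (SE 0.06, adjusted p = 0.0029) and 0.18 (SE 0.07, adjusted p = 0.017) on the log2 scale, in the order low, medium and high. The high dose overlapped vehicle, and it did not pass against the low dose (-0.05, adjusted p = 0.57). The low dose lost its call, at adjusted p = 0.072 to 0.15, with no filter on low counts, without Vehicle replicate 1 or 3 or Polygalae low replicate 2 or 3, and the high dose with no filter or without Vehicle replicate 1 or 3 or Polygalae high replicate 1, at adjusted p = 0.054 to 0.19. In Aucklandiae CDKN1B fell against vehicle, with 18.4, 18.1 and 18.5 CPM at the high dose (log2 fold change -0.22, SE 0.07, adjusted p = 0.02). With no filter on low counts, or without Vehicle replicate 2 or Aucklandiae high replicate 1 or 2, the adjusted p was 0.052 to 0.17. The low dose had 21.3, 21.1 and 20.3 CPM, above the high dose without overlap. At Aucklandiae high against low, 0 of the 10 genes were called lower, and 2, FOXM1 and CDKN1B, without Liriopis high replicate 1.

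The change between the high and the low dose was then compared between herbs, as the difference of 2 log2 fold changes. The doses of Polygalae (250 against 10 µg/mL) differ from those of Schisandrae and Aucklandiae (500 against 20 µg/mL) in level but span the same ratio. Polygalae minus Schisandrae differed in 7 of 10 genes, where 41% of all genes did, and in 9 beside 50.1% without Liriopis high replicate 1. The difference was positive for CCNE2 (log2 fold change 1.06, SE 0.13, adjusted p = 6e-09), E2F1 (log2 fold change 0.81, SE 0.14, adjusted p = 6.4e-06) and CCNE1 (log2 fold change 0.77, SE 0.10, adjusted p = 5.2e-08), whose own changes were above 0 in Polygalae and below 0 in Schisandrae. It was also positive for MYBL2 (log2 fold change 0.52, SE 0.10, adjusted p = 3e-05), which fell in both. It was negative for CDKN1B (log2 fold change -0.61, SE 0.09, adjusted p = 4.2e-07), CCND1 (log2 fold change -0.50, SE 0.11, adjusted p = 0.00028) and MYC (log2 fold change -0.45, SE 0.07, adjusted p = 1.6e-06). Schisandrae minus Aucklandiae differed in 6 of 10 beside 32.6% of all genes, and in 8 beside 42.7% without that library. It was negative for CCNE1 (log2 fold change -0.83, SE 0.11, adjusted p = 1.4e-08), MYBL2 (log2 fold change -0.76, SE 0.10, adjusted p = 3.2e-08), CCNE2 (log2 fold change -0.65, SE 0.13, adjusted p = 0.00012) and E2F1 (log2 fold change -0.55, SE 0.14, adjusted p = 0.0017), and positive for CDKN1B (log2 fold change 0.74, SE 0.09, adjusted p = 1.3e-08) and MYC (log2 fold change 0.45, SE 0.07, adjusted p = 3.1e-06). CCND1, which rose in both, did not differ past the threshold (95% interval of the difference -0.30 to 0.15). Polygalae minus Aucklandiae differed in 3 of 10 beside 22.8% of all genes, and in 5 beside 33.0% without it. These were CCND1 (log2 fold change -0.57, SE 0.11, adjusted p = 9.8e-05), CDK6 (log2 fold change -0.65, SE 0.20, adjusted p = 0.011) and CCNE2 (log2 fold change 0.41, SE 0.13, adjusted p = 0.018). The CCNE2 difference was lost without Polygalae high replicate 1 or Polygalae low replicate 3, at adjusted p = 0.057 to 0.058.

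**Figure D4:**
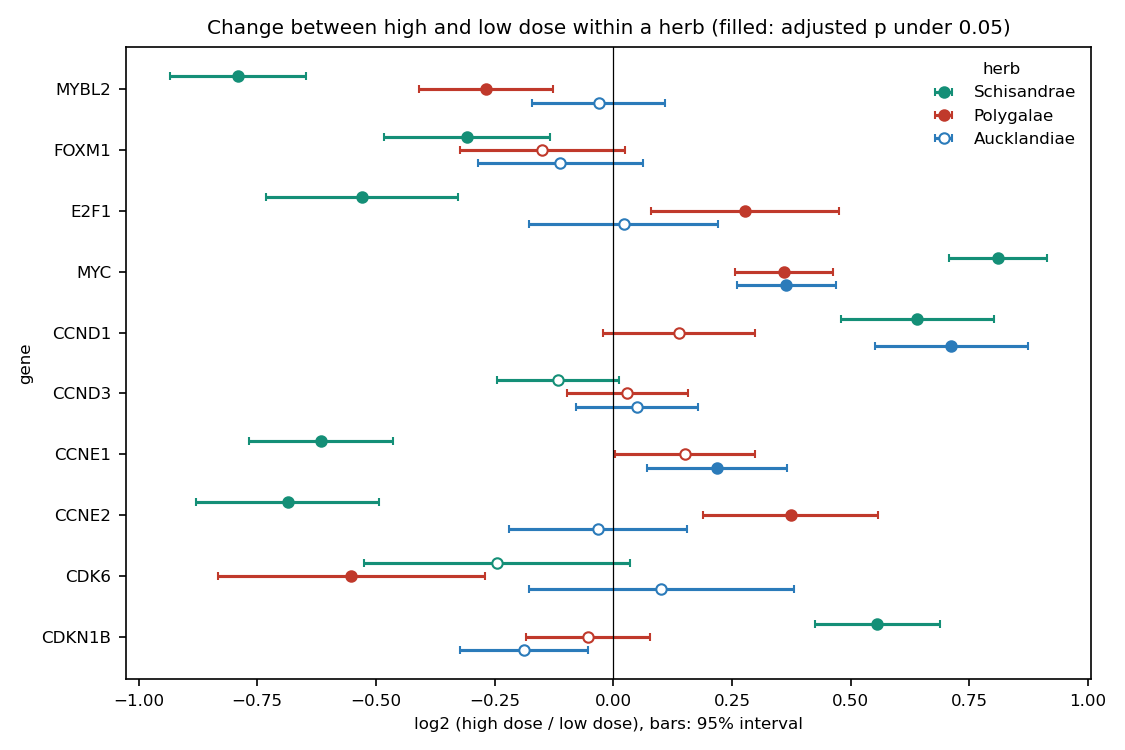
Log2 fold change between the high and the low dose of Schisandrae, Polygalae and Aucklandiae for each gene; bars are 95% intervals from the common fit and filled points have an adjusted p under 0.05. E2F1, CCNE1 and CCNE2 lie left of 0 for Schisandrae and right of 0 for Polygalae, and CCND1 lies near 0.7 for Aucklandiae and 0.64 for Schisandrae.

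In Liriopis high against vehicle, 6 of 10 genes were called, where 34% of all genes were. Without replicate 1 none of the 10 was called, beside 0.00553% of all genes. The 6 genes were FOXM1, E2F1, CCND1, CCND3, CCNE2 and CDK6. FOXM1 had 116, 215 and 199 CPM in Liriopis high replicates 1 to 3, CCND1 132, 205 and 193 CPM and CDK6 40.4, 91.5 and 85.6 CPM. E2F1 had 69.0, 38.4 and 43.2 CPM in the same order. Replicate 1 was the lowest of all 60 libraries for FOXM1, CCND1 and CDK6 and the highest for E2F1. Each of the 6 calls also ended without Vehicle replicate 3, those of FOXM1, E2F1, CCND3 and CDK6 without Vehicle replicate 2, and those of FOXM1 and CCND1 without Vehicle replicate 1. For Liriopis high against low, 1 of 10 was called (16.1% of all genes), CCND3, a call that ended without Liriopis high replicate 1 or Liriopis low replicate 2 or 3, at adjusted p = 0.084 to 0.93. The low dose (0.00562% of all genes) and the medium dose (0.0112%) of Liriopis called none of the 10.

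No gene of the 10 was called against vehicle in Longan or Zizyphi at any dose or in Schisandrae low or medium. The share of all genes called there was 0.00562% at the low, 0.0281% at the medium and 0.843% at the high dose of Longan. It was 0%, 0.0393% and 0.607% in Zizyphi, and 0% and 1.02% at the low and medium dose of Schisandrae. Without Liriopis high replicate 1, CCND1 was the only 1 of the 10 called against vehicle in these groups, lower in Schisandrae medium, where 4.66% of all genes were called (176, 174 and 189.6 CPM, against 201, 188 and 223 CPM in vehicle; adjusted p = 0.036). Of the further dose comparisons, none of the 10 genes was called for Longan high (0.247% of all genes) or medium (0%) against low, Zizyphi high (0.674%) or medium (0.0112%) against low, Liriopis medium (0%), Schisandrae medium (0.332%) or Aucklandiae medium (0.0169%) against low. In the 33 libraries of the 11 groups chosen above for few calls, CCND1 ranged from 168 to 216 CPM, with a median of 196 CPM. MYC ranged from 59.4 to 73.9 CPM with a median of 67.1 CPM, and CDKN1B from 18.5 to 23.6 CPM with a median of 21.4 CPM. Over the 11 comparisons with vehicle in which edgeR called none of the 10, 7 of 110 values had an unadjusted p under 0.05, and DESeq2 called none. Over the 7 such comparisons of doses it was 6 of 70 values, and DESeq2 called 1 gene each for Schisandrae medium and Zizyphi high against low.

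Other genes of the pathway were counted in 6 lists that do not include the 10 genes, with values as log2 fold changes. The lists were chosen with earlier results of these data known, so their counts are a description. Under wortmannin, 14 of 24 G1/S target genes fell and none rose beside 6.52% of all genes lower and 5.45% higher, with a list median log2 fold change of -0.26 against 0.008 for all genes. Without Liriopis high replicate 1 it was 19 and 0, beside 12.3% lower and 10.4% higher. RRM1 (-0.26), a subunit of ribonucleotide reductase, was among the 4 with the smallest p. Of G2/M targets 19 of 24 fell and none rose (22 and 0 without it), among them KIF2C (-0.29) and TPX2 (-0.29), which act on spindle microtubules. MYC target genes fell in 11 of 20 and rose in none, with ODC1 at -0.41 and DKC1 at -0.33 (16 fell without it). In the MYC network MXD4 (0.56) and MXI1 (0.46), which antagonise MYC at MAX, rose, the 2 calls among its 12 tested genes (3 higher and 0 lower without it). Among the E2F family and DREAM complex 1 of 16 rose and 5 fell (2 and 6 without it), such as MYBL1 (-0.52) and LIN9 (-0.35), which fell. Of the other G1 genes, CDKN1A (0.35) rose and CDC25A (-0.24) fell, of 22 tested (2 and 5 without it).

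At Schisandrae high against low the G1/S and G2/M targets went different ways. Of the 24 G1/S targets 16 fell and 1 rose, where 24.8% of all genes fell and 25% rose. Without Liriopis high replicate 1 it was 18 and 2, beside 28.7% and 28.8% of all genes. Among the 4 with the smallest p were MCM3 (-1.40), UHRF1 (-1.02) and TYMS (-0.82), genes of DNA replication and its nucleotides. Of the 24 G2/M targets 20 rose and 1 fell (21 and 1 without it), with KIF2C at 0.76, CCNA2 at 0.81 and BUB1 at 0.88. TFDP1 (-0.64) and TFDP2 (-0.90), the dimerisation partners of E2F factors, fell and E2F5 (0.93) rose, 4 rising and 6 falling of 16 in their list (5 and 6 without it). CDKN2C (-1.04), the p18 inhibitor, fell and CDKN2D (1.11), the p19 inhibitor, rose, with 8 rising and 4 falling of 22 other G1 genes (10 and 6 without it). MXD1 (1.11) rose and MAX (-0.49) fell, among 6 rising and 2 falling of 12 network genes (6 and 2 without it). Of the MYC targets 5 rose and 6 fell of 20 (10 and 7 without it). Summed markers of other cell types moved in both directions. The epithelial ones had 62.4 to 66.3 CPM at the high dose against 139 to 153 CPM at the low dose. The neuronal ones had 29.4 to 30.6 against 52.0 to 58.1 CPM. In vehicle, KRT18 made up 121 of the 136 CPM of the epithelial sum, both without TMM scaling. The fibroblast and glial sums were also lower at the high dose. The oligodendrocyte sum was higher, at 11.7 to 14.5 against 6.97 to 7.92 CPM. So were the leukocyte (206 to 239 against 172 to 203 CPM) and endothelial sums (38.3 to 40.7 against 35.9 to 37.7 CPM). Their part in these results was not tested.

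At Polygalae high against low 13 of 24 G1/S targets fell and 5 rose, beside 18.3% and 17.9% of all genes. Without Liriopis high replicate 1 it was 14 and 8, beside 22.7% and 23.0%. RRM1 (-0.83), RRM2 (-0.43) and MCM6 (-0.63) fell, whereas CHAF1A (0.62), a subunit of a histone chaperone, rose. Of G2/M targets 20 of 24 fell and none rose (21 and 0 without it), with KIF20A at -1.47 and TOP2A at -0.92. In the E2F family and DREAM 10 of 16 rose and 1 fell (10 and 2 without it), and E2F3 (0.50), LIN52 (0.46), TFDP2 (0.39) and E2F6 (0.49) were among those that rose. CDKN1A (1.14), which encodes p21, and CDC25A (0.46) rose, with 4 rising and 4 falling of 22 other G1 genes (5 and 5 without it). MYC targets fell in 9 and rose in 2 of 20 (14 and 2 without it), led by LDHA at -1.15, and MYC network genes rose in 4 and fell in 2 of 12 (5 and 2 without it). Summed markers of other cell types moved here in both directions as well. The oligodendrocyte ones rose to 10.5 to 12.1 CPM at the high dose, against 6.66 to 8.31 CPM at the low dose. The epithelial markers had 41.5 to 43.8 CPM at the high dose against 113 to 117 CPM at the low dose, the neuronal ones 33.1 to 36.8 against 48.9 to 50.2 CPM, and the fibroblast ones 1100 to 1190 against 3800 to 4100 CPM. Their part in these results was not tested.

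At Aucklandiae high against low 5.32% of all genes were higher and 5.3% lower, and 10.0% and 9.3% without Liriopis high replicate 1. Of the 24 G1/S targets 1 rose and 1 fell (1 and 6 without it), and of the 24 G2/M targets none rose and 4 fell (0 and 8 without it), led by KIF20A at -0.47. In the MYC network 3 of 12 rose and 1 fell, which was MXD4 at -0.46 (3 and 2 without it). Of the 20 MYC targets 2 rose and none fell (8 and 0 without it). CDKN2C (-0.55) fell and CDKN2B (0.20) rose among the other G1 genes (3 higher and 3 lower of 22 without it), and E2F7 (0.65) rose and RBBP4 (-0.13) fell in the E2F family and DREAM list (3 higher and 1 lower without it). The difference of the high against low changes between Polygalae and Schisandrae was called lower in 23 of 24 G2/M targets and higher in none, with and without that library, and in 25.3% of all genes without it.

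**Figure D5:**
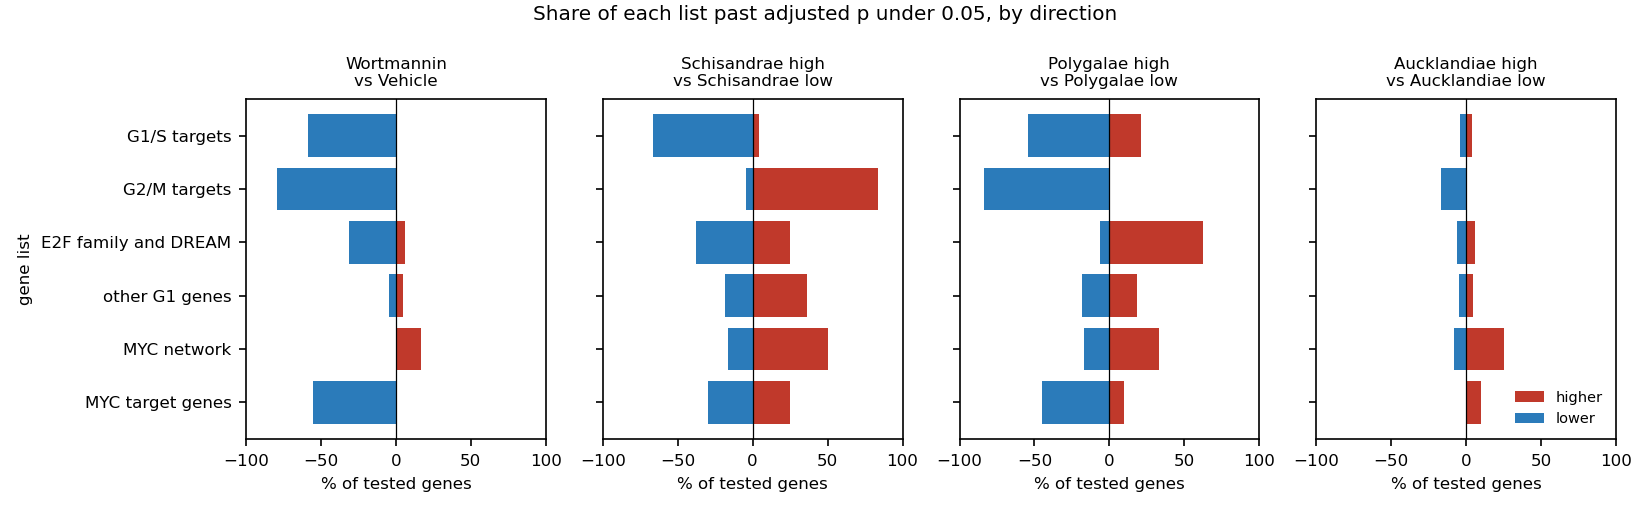
Percent of the tested genes of each of the 6 lists that were called higher (red, right of 0) or lower (blue, left of 0) in 4 comparisons. G2/M targets lie left under wortmannin and Polygalae high against low, and right under Schisandrae high against low, where 20 of 24 rose.

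Similarity of pattern was described as the Pearson r of log2 CPM over the 20 group means, which include Liriopis high replicate 1. The genes closest to MYBL2 were JPT2 (r = 0.94), RFLNB (0.93) and TCF19 (0.92), those closest to E2F1 were GINS2 (0.93), CEP19 (0.92) and CISD3 (0.91), and E2F8 (0.90), ASCC2 (0.90) and OAS3 (0.89) were closest to FOXM1. For MYC they were CDCP1 (0.94), FGF5 (0.93) and GRPEL1 (0.93), and for CCND1 they were TPBG (0.91), FOXD1 (0.90) and ELK3 (0.90). CCND3 was least matched, with COMMD5 (0.84), TMCO1 (0.83) and SPG21 (0.82). CCNE1 was closest to CEP19 (0.92), BORCS8 (0.91) and CTDSPL (0.90), and among the genes closest to CCNE2 were ZSCAN26 (0.90) and PPWD1 (0.88). Among the genes closest to CDK6 were R3HDM1 (0.96) and DIAPH1 (0.94), and CDKN1B was closest to APOL6 (0.94), STAT2 (0.94) and COQ8A (0.93). Among the 10 genes themselves, E2F1 and CCNE1 had an r of 0.88, MYC and CCND1 0.80, and CCNE1 and CCNE2 0.72. CDKN1B ran opposite to CCNE1 (-0.83), MYBL2 (-0.82) and E2F1 (-0.76). These r values describe 20 group means and carry no test.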

How the data were processed

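Gene-level expected counts of 60 libraries were deposited by the authors as 1 table of 60675 Ensembl identifiers. Per the submitters' processing notes, FastQC 0.11.9, Trim Galore 0.6.5, STAR 2.7.3a, RSEM 1.3.3 and the hg38 (GRCh38) build were used; which annotation was counted, and whether strand was used, is not given in the sources used here. Per the labels' protocols, libraries were directional mRNA libraries read as pairs. Expected counts were rounded, since 11.0% of the values were not whole. Library totals ran from 9.34 to 35.35, in units of 1000000 counts.

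Genes were kept by edgeR's filterByExpr (minimum count 10), which left 17792, and were normalised by TMM. A quasi-likelihood model with 1 mean per group was fitted to all 60 libraries, with 40 residual degrees of freedom (R 4.3.3, edgeR 4.0.16, limma 3.58.1; Python 3.11.15). It gave 34 comparisons, 19 with vehicle, 12 between doses and 3 between the dose changes of herbs. P-values were adjusted by Benjamini-Hochberg over all tested genes in each comparison, and an adjusted p under 0.05 was called. The SE came from the log2 fold change and its F statistic, and CPM used TMM-normalised totals except where stated. Exon lengths and gene coordinates came from GENCODE 29. The procedure was tested on simulated counts.

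The 10 genes and the lists were chosen with earlier results of these data known. All 10 genes are described in every group; list genes are named as up to 4 called ones with the smallest p, and the 3 genes most like a member by Pearson r over group means; some genes that this rule names are not reported here. Alternatives were RLE factors, no filter, robust dispersion, a fit of the compared groups alone, DESeq2 1.42.0, a replicate block and leaving out each library. Counts without Liriopis high replicate 1 in every comparison were added after the data had been seen.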

Additional observations from a re-analysis of the deposited data

Results flagged for a closer look

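The changes between the high and the low dose differed between herbs in 16 tests of the difference itself, in edgeR's quasi-likelihood model with adjusted p-values over all genes. The values are differences of log2 fold changes. Polygalae minus Schisandrae gave 1.06 for CCNE2, 0.81 for E2F1, 0.77 for CCNE1 and 0.52 for MYBL2, and -0.45 for MYC, -0.50 for CCND1 and -0.61 for CDKN1B. Schisandrae minus Aucklandiae gave -0.83 for CCNE1, -0.76 for MYBL2, -0.65 for CCNE2 and -0.55 for E2F1, and 0.45 for MYC and 0.74 for CDKN1B. Polygalae minus Aucklandiae gave 0.41 for CCNE2, -0.57 for CCND1 and -0.65 for CDK6. The doses of Polygalae were lower than those of the other herbs, and Schisandrae libraries belong to another set of library names than Polygalae and Aucklandiae. Mitochondrial genes took 12.4% to 13.4% of counts at Polygalae high, against 7.87% to 10.97% at Polygalae low, and the part of this in the differences was not tested.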

How the results depend on the processing

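Of the 65 changes called among the 10 genes, none changed direction under any alternative run. In 390 values from settings other than leaving out a library, 19 were no longer called, and in 544 values with 1 library left out, 57 were not. Scaling by RLE instead of TMM shifted the log2 values by at most 0.012. With no filter on low counts, 0 of the 10 genes were called for Polygalae low and Aucklandiae medium against vehicle and for Liriopis high against low. With only the compared groups in the fit, the count was 5 for wortmannin, 0 for Liriopis high, 7 for Polygalae high, 2 for Aucklandiae medium and 5 for Aucklandiae high against vehicle, 0 for Liriopis high and 2 for Polygalae medium against low, and 5 for Polygalae minus Aucklandiae. DESeq2 called 4 for Liriopis high, 1 for Schisandrae medium and 1 for Zizyphi high against low. The cause of these shifts was not tested.

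Leaving out 1 library at a time, the count against vehicle ranged from 2 to 6 for wortmannin, 0 to 7 for Liriopis high, 0 to 1 for Schisandrae medium, 0 to 2 for Polygalae low, 2 to 5 for Polygalae medium, 3 to 9 for Polygalae high and 1 to 2 for Aucklandiae medium. Against the low dose it ranged from 0 to 6 for Liriopis high, 0 to 1 for Schisandrae medium, 0 to 1 for Zizyphi high, 4 to 8 for Polygalae high, 1 to 2 for Polygalae medium and 2 to 5 for Aucklandiae high. For Polygalae minus Aucklandiae it ranged from 2 to 5. The highest or lowest of these often came without Liriopis high replicate 1, as given beside the counts.

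No comparison had a correlation of deviations over 0.1 in every pair of same-numbered libraries, and the main fit did not pair them. The highest were 0.22, 0.05 and 0.14 for replicates 1 to 3 of Liriopis high and vehicle. This rule cannot show that same-numbered libraries had only their number in common. With a replicate block, 3 of the 10 genes were called for wortmannin and 5 for Polygalae medium against vehicle, where the fit without it called 3 and 4. With 3 libraries per group, a gene that was not called is not shown to be unchanged.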
